A study of Mus musculus with 39 samples.

Results

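Imprinted genes are expressed from only the maternal or only the paternal copy, and the copies are told apart by DNA methylation set down in the egg or in sperm. At most imprinted loci the mark comes from the egg. The loci described here are those named for a mark on the paternal copy: the H19 and Igf2 locus, the Dlk1-Meg3 locus and Rasgrf1. H19 is a long non-coding RNA made from the maternal copy, and Igf2 is a growth factor made from the paternal copy. They share a control region upstream of H19, where methylation of the paternal copy keeps the insulator protein CTCF from binding. Meg3 is a maternally expressed long non-coding RNA whose locus is controlled by an intergenic region between Dlk1 and Meg3, with a secondary methylated region at the Meg3 promoter. Rasgrf1 is a guanine nucleotide exchange factor expressed from the paternal copy in brain and is controlled from an upstream region. A region methylated on only 1 copy is expected to read near the middle of the methylation scale when both copies are sampled alike, and loss or gain of methylation at these regions is a known instability of cultured embryonic stem cells.

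The loci were taken as 3 windows of mouse genome build mm9, set by position and not by any methylation value. The H19 to Igf2 window is chr7:149755001-149860000, the Meg3 window is chr12:110755001-110815000, and the Rasgrf1 upstream window is chr9:89760001-89785000. Together they held 64 of the 377684 deposited tiles of 200 bp (42, 17 and 5) and 59 of the 330387 deposited single CpGs (50, 7 and 2). No mm9 annotation was used, so tiles and CpGs are given by position and are not assigned to an exon, an intron or a control region.

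The study asked about the role of p53, a transcription factor of the stress response, in the DNA methylation of naive mouse embryonic stem cells (mESC). Its 39 libraries fall into 10 groups. The mESC came from matings of p53+/- mice of the line 129s-Trp53tm2Tyj/J, taken as morulas at embryonic day 2.5, and were wild type (WT) or p53-/-, called p53-null below. Naive cells were kept in 2i and LIF medium, inhibitors and a cytokine that hold the naive state, on irradiated mouse embryonic fibroblast feeders. For differentiation, cells depleted of feeders were plated on gelatin, held in differentiation medium for 16 hours and given 1 uM retinoic acid (RA) each day for 4 days. Liver came from male WT and p53-null offspring of heterozygous parents at 16 weeks. Reduced representation bisulfite sequencing (RRBS), which reads CpGs near MspI cuts and does not separate 5-methylcytosine (5mC) from 5-hydroxymethylcytosine (5hmC), gives what is here called total methylation. Its oxidative form (oxRRBS) reads 5mC alone. RRBS covered 5 WT and 3 p53-null naive, 5 WT and 4 p53-null RA-treated, and 3 WT and 3 p53-null liver libraries. The oxRRBS libraries were 5 WT and 3 p53-null naive, and 4 WT and 4 p53-null RA-treated. The sex of the mESC lines, and whether libraries of a group come from separate lines or clones, were not stated in what was used here. Feeder removal is stated only for the differentiated cells.

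The authors deposited 1 pooled value per group, without read counts or values of single libraries. Depth is therefore unknown, and no value below carries an SD, an n or an interval. The spread between libraries was not at hand for a test, and significance is given only by q-values, taken from the authors' deposited table of tiles. Where a tile is said to be called in that table, its q was under 0.05 and its difference at least 10 points. This cut-off was set and applied for this description, to differences of the deposited levels. Neighbouring tiles and CpGs share reads and are not replicates. The CpG table names naive and RA-treated cells. The tile table has a first and a second set of columns whose headings name no cell state. In 47820 tiles with 1 measured CpG, the total WT column of the first set differed from that CpG by 5.996 points on average in naive WT cells and by 19.8 points in RA-treated WT cells. Each of the other 3 columns of the first set was likewise nearest to the naive column of its genotype and measure, and each of the 4 columns of the second set to the RA-treated one. The sets are still called first and second here. The CpG table's columns with the suffix Hx, which is not defined, were taken as 5mC. They never exceeded total methylation at any of 330387 CpGs, which the tile columns did not share. A further pair of tile columns, headed only WT and p53, was taken as liver because liver is the only other tissue of the labels, and every liver value below rests on that reading.

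The largest difference between genotypes that recurred in both sets lay in the Meg3 window, in a stretch of 6 tiles at chr12:110778401-110780200. For a view of the kind of sequence RRBS reads here, the first of 2 Meg3 promoter entries of RefSeq is shown, 250 bases before to 50 bases after the start of the gene (build GRCm38.p6, chr12:109540746-109541045, plus strand), with each CG in capitals.

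Meg3 promoter: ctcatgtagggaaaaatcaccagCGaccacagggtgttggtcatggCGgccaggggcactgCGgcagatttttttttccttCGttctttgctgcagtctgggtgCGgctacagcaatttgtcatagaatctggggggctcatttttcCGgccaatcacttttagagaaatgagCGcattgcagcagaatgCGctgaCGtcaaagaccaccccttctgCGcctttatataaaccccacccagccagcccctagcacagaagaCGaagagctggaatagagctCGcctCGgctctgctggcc

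It holds 13 CG and 1 CCGG, the letters MspI cuts, which read the same on both strands. Of 32851 RefSeq mouse promoters of this length 52.8% hold a CCGG, 37.9% hold at least 13 CG, and the median is 7 CG. It is on another build than the methylation tables, so its place among the measured tiles was not established. Its display was chosen after the Meg3 values were seen.

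In 2 neighbouring tiles of this stretch, the only ones of the 6 with mESC values in both sets, methylation was low in WT mESC and higher in p53-null mESC in either set. Tile chr12:110779001-110779200 had a total methylation of 14.5% in WT against 59.5% in p53-null cells in the first set, and of 20.4% against 40.0% in the second set. Its 5mC was 15.3% in WT against 66.9% in p53-null cells in the first set, and 16.2% against 45.2% in the second. All 4 WT values were thus at or below 20.4%, and all 4 p53-null values at or above 40.0%. In the authors' deposited table the p53-null minus WT difference of this tile was 45.1 points of total methylation (q = 0 as deposited) in the first set and 19.6 points (q = 3.03e-07) in the second. For 5mC, the authors' deposited table gives 51.6 and 29.0 points, both with q = 0 as deposited. Over all tiles, total methylation was higher in p53-null cells by at least as much at 0.644% in the first set and at 1.46% in the second. In the first set the 5mC of p53-null cells was read above their total methylation, although 5mC is a part of the total. What sets this gap was not tested.

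The next tile, chr12:110779201-110779400, had nearly the same values. Total methylation was 10.7% in WT against 48.3% in p53-null cells in the first set, and 17.6% against 40.4% in the second. Its 5mC was 11.8% and 63.7% in the first set, and 13.4% against 34.6% in the second. Here too the p53-null 5mC of the first set read above the p53-null total. In the authors' deposited table the differences in total methylation were 37.6 points (q = 0 as deposited) and 22.8 points (q = 2.29e-06), and those in 5mC 51.9 points (q = 0 as deposited) and 21.2 points (q = 5.97e-06). In the columns taken as liver both tiles were near the middle of the scale in both genotypes, at 54.2% in WT against 50.4% in p53-null liver for the first tile, and at 53.01% and 50.8% for its neighbour. WT mESC were therefore the only one of these sources in which the 2 tiles read at or under 20.4%.

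A pair of tiles just before them was measured in mESC only in the second set. Tile chr12:110778401-110778600 had 20% total methylation in WT against 44.7% in p53-null cells, and a 5mC of 22.4% and 63.9%. Of this pair of measures only 5mC was called in the authors' deposited table, at 41.6 points (q = 3.13e-05), and total methylation had q = 0.146. The called difference rests on a p53-null 5mC above the p53-null total. Tile chr12:110778801-110779000 had 12.5% and 33.3% total methylation, with q = 0.0873 in the authors' deposited table. Its 5mC was lower, at 4.17% in WT against 19.2% in p53-null cells, with q = 0.063 in the authors' deposited table. The direction was the same in all 4 tiles of this stretch that had second-set values, with a mean difference of 21.97 points in total methylation. In WT liver chr12:110778401-110778600 was high, at 91.5%, as was chr12:110778601-110778800, a tile without mESC values, at 88.9%. Tile chr12:110778801-110779000 had 61.5% in WT against 44.8% in p53-null liver.

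**Figure D1:**
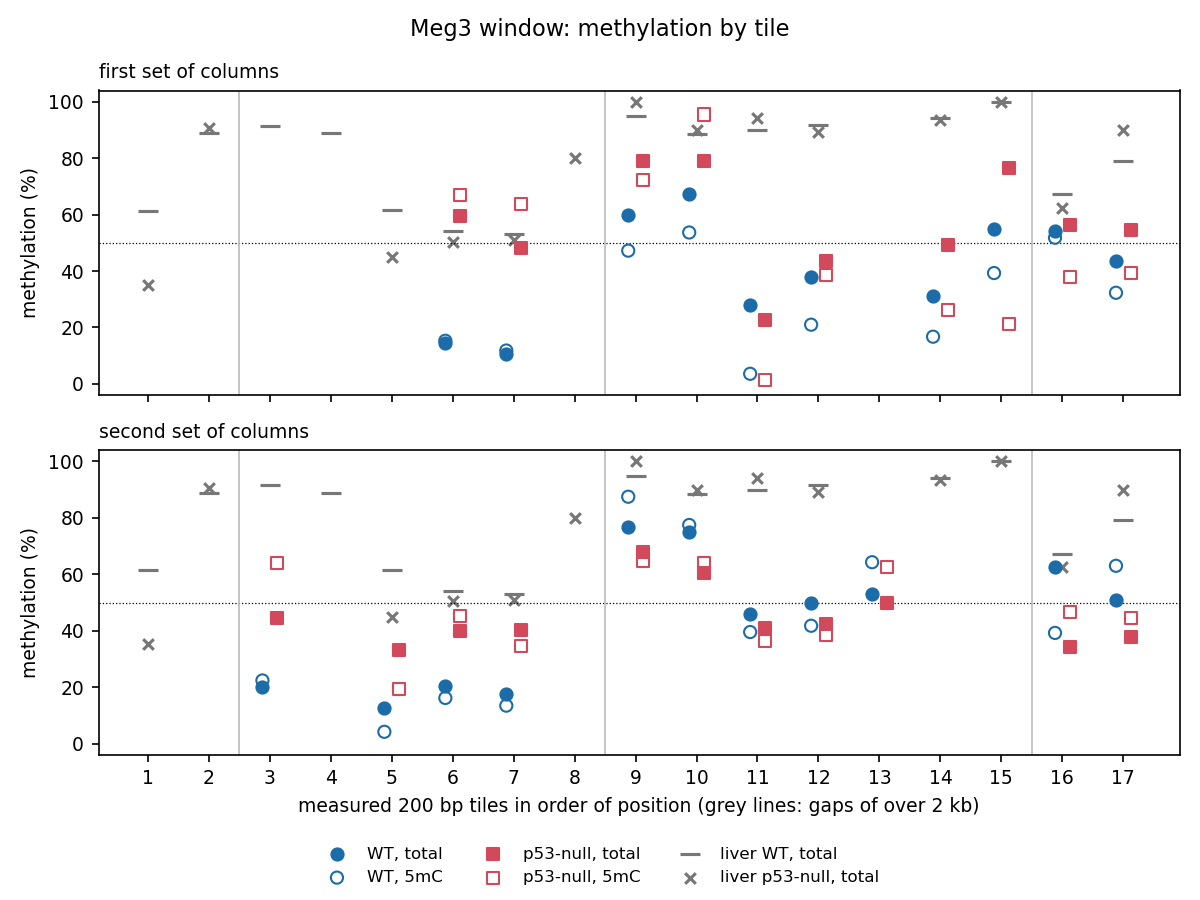
Methylation (%) of the 17 measured tiles of the Meg3 window in order of position, in the first (top) and second (bottom) set of columns; filled symbols are total methylation, open symbols 5mC, blue WT, red p53-null, and grey dashes and crosses the columns taken as liver, with a dotted line at 50%. Tiles 6 and 7 show WT mESC at 10.7 to 20.4% and p53-null mESC at 34.6 to 66.9%, beside liver at 50.4 to 54.2%.

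The single CpG measured in this stretch, at chr12:110779173-110779174, lies in the first of these tiles and can be tied to a cell state. Its total methylation was 19% in naive WT, 68% in naive p53-null, 24% in RA-treated WT and 57% in RA-treated p53-null cells. Its Hx values, taken as 5mC, were 13%, 41%, 18% and 53% in the same order. Both RA-treated values kept the order of the naive ones, with p53-null cells higher by 49 points in naive and by 33 points in RA-treated cells. Of all 330387 CpGs, 0.143% were higher in p53-null cells by at least 49 points in the naive state and 0.0630% by at least 33 points after RA. It was the single CpG of the 59 where p53-null cells lay at least 25 points above WT in naive and in RA-treated cells alike, a pattern that 187 CpGs of the table had (0.0566%). These shares place the CpG among all CpGs of the pooled groups, and its difference has no test of its own.

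The CpGs in the rest of the Meg3 window did not show this difference. The 5 CpGs at chr12:110784119-110784275 averaged 33.2% in naive WT, 36% in naive p53-null, 48.4% in RA-treated WT and 46.8% in RA-treated p53-null cells. All 5 were higher in RA-treated than in naive cells, by 7 to 21 points in WT and by 1 to 20 points in p53-null cells. The largest genotype difference among them was 15 points, at chr12:110784274-110784275, with 23% in naive WT and 38% in naive p53-null cells. The last Meg3 CpG, chr12:110814733-110814734, went the other way, with 59% in naive WT, 46% in naive p53-null, 55% in RA-treated WT and 33% in RA-treated p53-null cells. Between these Meg3 CpGs and the one at chr12:110779173-110779174, genotype differences thus ran from -22 to 49 points.

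**Figure D2:**
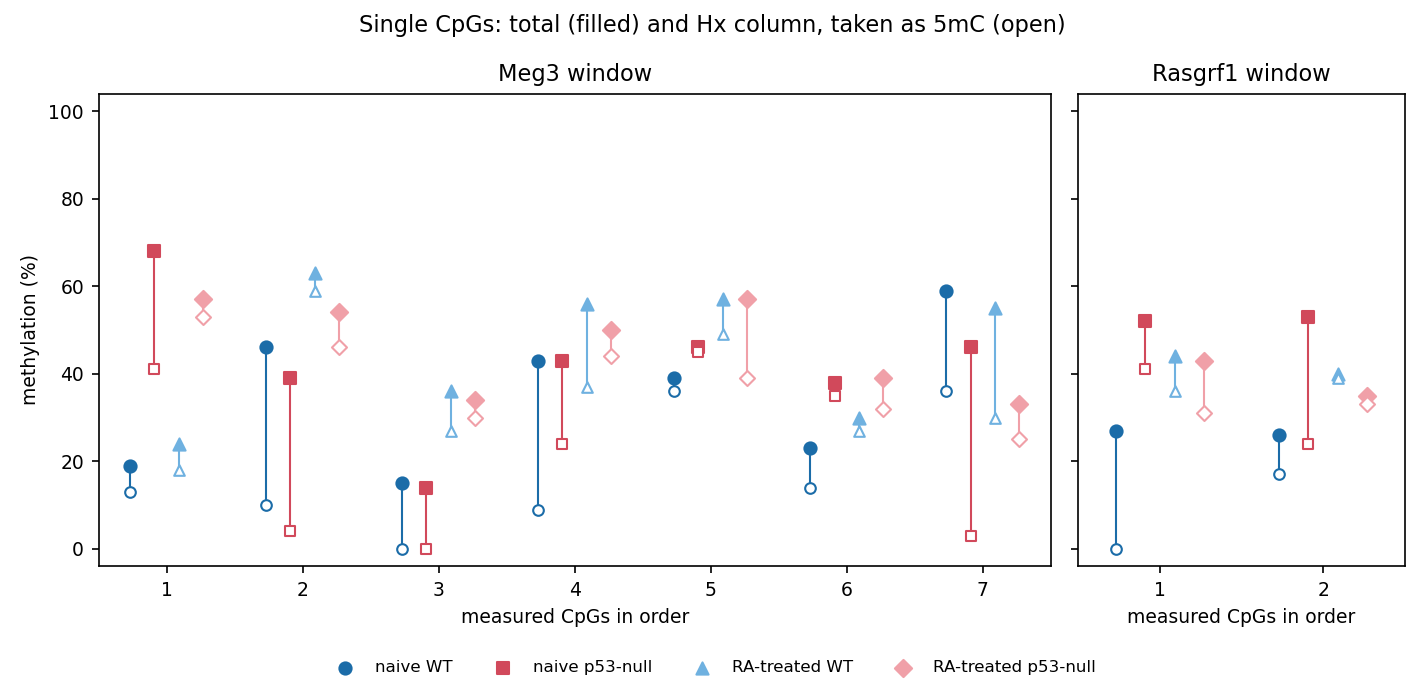
Methylation (%) of the 7 measured CpGs of the Meg3 window and the 2 of the Rasgrf1 window in order of position, in naive and RA-treated WT and p53-null cells; filled symbols are total methylation, open symbols the Hx column taken as 5mC, and a line joins the pair. Meg3 CpG 1 has p53-null cells above WT in both states (68% against 19%, and 57% against 24%), and both Rasgrf1 CpGs have this order in naive cells only.

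The Meg3 stretch at chr12:110782801-110788200 had another pattern in the tiles as well. Its 6 tiles with first-set values averaged 46.6% total methylation in WT against 58.4% in p53-null cells, and its 5 with second-set values 60.1% and 52.4%. The authors' deposited table called 3 of these 6 tiles higher in p53-null cells in the first set, beside 28.9% of all tiles, with differences of 19.1 points at chr12:110782801-110783000 (q = 0.0454), 11.6 points at chr12:110783001-110783200 (q = 0.0435) and 17.99 points at chr12:110787801-110788000 (q = 0.00122). For first-set 5mC it called 3 of the 6 higher, beside 38.6% of all tiles, with 25.2 points at chr12:110782801-110783000 (q = 0.0402), 41.8 points at chr12:110783001-110783200 (q = 0 as deposited) and 17.6 points at chr12:110784201-110784400 (q = 0.000207). The 41.8 points rest on a p53-null 5mC of 95.5%, above the p53-null total of 79.0%. In the authors' deposited table the 5mC of chr12:110787801-110788000 had q = 0.0162, but its 9.37 points fell short of a call. First-set gains thus occurred in both stretches of the window. In the second set, p53-null cells had lower total methylation in all 5 tiles, and the authors' deposited table called none of them, beside 3.75% of all tiles called lower. Second-set 5mC was also lower in all 5, with a mean difference of -8.95 points. Of these, only chr12:110783001-110783200 is a call in the authors' deposited table (-13.7 points, q = 0.0302), beside 12.7% of all tiles called lower. Liver was high here in both genotypes, at 93.2% in WT against 94.5% in p53-null on average. In the last 2 tiles of the window total methylation was lower in p53-null cells in the second set, with 62.7% in WT against 34.2% in p53-null cells at chr12:110814601-110814800, a fall that the authors' deposited table calls (-28.6 points, q = 0.0333). The 5mC of that tile went the other way, with 39.2% in WT against 46.8% in p53-null cells, the latter above the p53-null total, and was not called. At its neighbour chr12:110814801-110815000, second-set 5mC was 63.0% in WT against 44.4% in p53-null cells. The authors' deposited table calls that fall (-18.6 points, q = 0.044). The first 2 tiles of the window, at chr12:110763801-110765000, had liver values only. They were 61.4% in WT against 35.1% in p53-null liver for the first and 88.9% and 90.6% for the other.

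At both Rasgrf1 CpGs, total methylation was higher in p53-null than in WT cells in the naive state, and the genotypes lay within 5 points of each other after RA. CpG chr9:89772915-89772916 had 27% total methylation in naive WT and 52% in naive p53-null cells, and 44% and 43% in RA-treated cells. CpG chr9:89772999-89773000 had 26% and 53% in naive cells, and 40% and 35% in RA-treated cells. From naive to RA-treated cells the WT values changed by 17 and 14 points, and the p53-null values by -9 and -18 points. The genotypes were thus 25 and 27 points apart in naive cells and -1 and -5 points apart after RA. Their Hx values differed by 41 and 7 points in naive cells and by -5 and -6 points after RA. Whether the 2 states differ in this was not tested. Of all CpGs, 3.75% and 3.002% were at least as much higher in naive p53-null cells as these 2.

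All 4 Rasgrf1 tiles with first-set values were called higher in p53-null cells in the authors' deposited table, for total methylation, beside 28.9% of all tiles. Tile chr9:89772801-89773000 had 19.9% in WT against 38.6% in p53-null cells, and its neighbour chr9:89773001-89773200 had 8.70% and 23.4%. Tile chr9:89780601-89780800 had 27.4% and 42.8%, and its neighbour chr9:89780801-89781000 had 9.52% and 21.95%. Their differences were 12.4 to 18.7 points, a range that includes the mean of 14.7 points over the 27 tiles within 100 kb on either side of the window. In 5mC the differences were 25.01, 1.43, 33.4 and 55.1 points in order of position, and the authors' deposited table calls all but the second, beside 38.6% of all tiles. The 2 widest rest on p53-null 5mC values above the p53-null total, 49.9% against 42.8% and 57.2% against 21.95%, although 5mC is a part of the total. The second set had the opposite sign in total methylation at all 4 tiles, from -11.9 to -3.40 points, and the authors' deposited table called none, beside 3.75% of all tiles called lower. Second-set 5mC had no common sign, with differences of -0.62, 11.1, 5.77 and -5.38 points and no call in the authors' deposited table. In WT cells every one of the 4 tiles was higher in the second set than in the first, by 16.4 points on average, and in p53-null cells every one was lower, with a mean change of -5.88 points. Over all 214665 tiles with both sets, WT cells were higher in the second set by 13.2 points and p53-null cells by 1.61 points. Liver had 57.1% in WT against 52.2% in p53-null at chr9:89769401-89769600, the first tile of the window, and 42.9% and 35.0% at chr9:89780601-89780800. The other 3 tiles were lower in liver, at 29.03% and 27.3% in WT for chr9:89772801-89773000 and its neighbour, and at 17.4% in WT and 15% in p53-null for chr9:89780801-89781000.

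**Figure D3:**
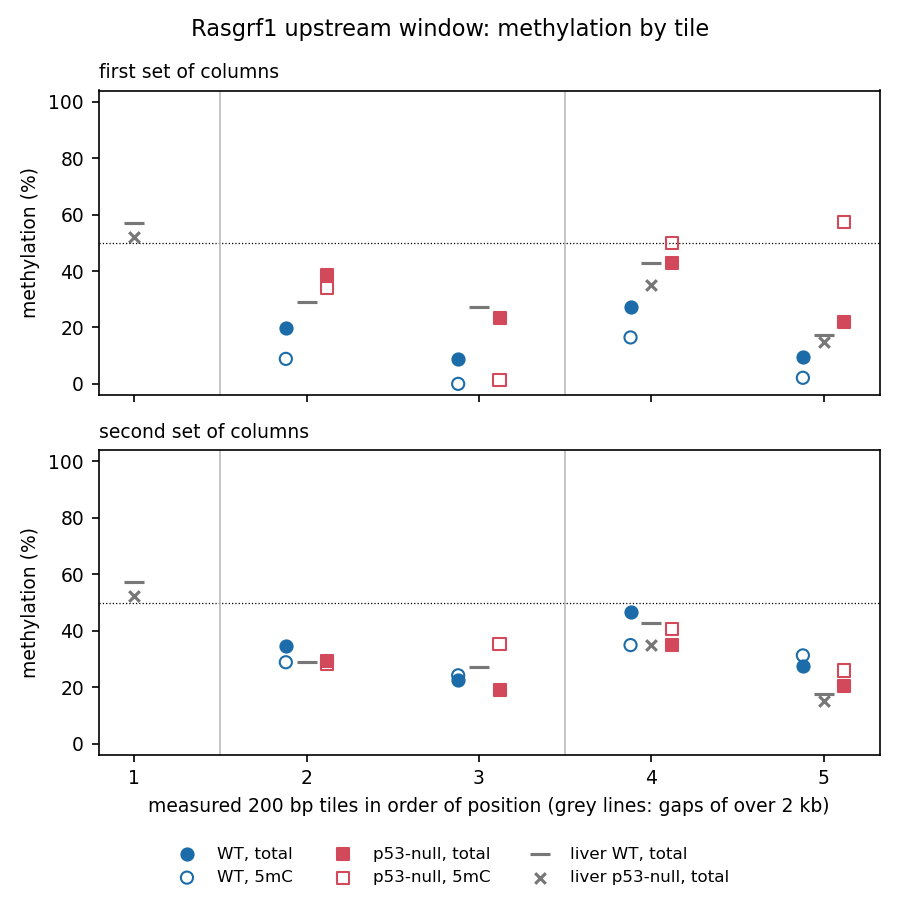
Methylation (%) of the 5 measured tiles of the Rasgrf1 upstream window in order of position, in the first (top) and second (bottom) set of columns; filled symbols are total methylation, open symbols 5mC, blue WT, red p53-null, and grey dashes and crosses the columns taken as liver. In tiles 2 to 5 the p53-null total lies above WT in the first set (21.95 to 42.8% against 8.70 to 27.4%) and below it in the second.

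The H19 to Igf2 window held stretches of very different level. In its first stretch, 7 tiles at chr7:149761601-149767400, total methylation ran from 10.6 to 64.7% in mESC. Tile chr7:149764601-149764800 had 28.6% total methylation in WT against 62.5% in p53-null cells in the first set, a call in the authors' deposited table (33.9 points, q = 0.00015). In the second set it had 59.7% in WT against 46.4% in p53-null cells, not called, and it read 64.3% in liver of both genotypes. WT cells were thus the low value in the first set only. Tile chr7:149761601-149761800 was within 43.2 to 64.7% in every total column, with 45.4% and 48.8% in the first set, 64.7% and 53.2% in the second, and 43.2% and 50% in liver. Its first-set 5mC was 45.2% in WT against 68.6% in p53-null cells, the latter above the p53-null total. That 5mC difference is a call in the authors' deposited table (23.4 points, q = 1.98e-07). The one CpG of this stretch, chr7:149762196-149762197, had 50% in naive WT, 81% in naive p53-null, 38% in RA-treated WT and 50% in RA-treated p53-null cells. Of all CpGs, 1.86% were at least 31 points higher in naive p53-null cells, as this one was. Its Hx values were 5% in naive WT, 73% in naive p53-null, 35% in RA-treated WT and 44% in RA-treated p53-null cells. Tile chr7:149767001-149767200 had low total methylation in mESC, at 18.6% and 28.6% in the first set and 17.2% against 10.6% in the second. Liver was higher, at 74.6% in WT against 60.7% in p53-null. First-set 5mC was not low, since WT read 51.4% and p53-null 42.4%, each above its total. Second-set 5mC had the opposite sign to the total, with 9.57% for WT against 21.7% for p53-null. The authors' deposited table calls that 5mC difference (12.2 points, q = 0.0382), and the p53-null 5mC again lay above its total.

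RefSeq's gene order places H19 and Igf2 next to each other apart from Mir675, a miRNA made from H19, and Gm33148. Between the outer stretches, 4 tiles at chr7:149816801-149818600 held the 2 largest first-set increases of the window in total methylation. Total methylation was 35.6% in WT against 70.8% in p53-null cells at chr7:149816801-149817000, and 15.2% and 50% at its neighbour chr7:149817001-149817200. The authors' deposited table calls all 4 tiles higher in p53-null cells, with differences of 25 to 35.2 points in total methylation and of 24.3 to 71.3 points in 5mC, beside 28.9% and 38.6% of all tiles called higher. The widest 5mC difference, at chr7:149818401-149818600, rests on a p53-null 5mC of 97.2% against a p53-null total of 75%. At chr7:149817001-149817200 the p53-null 5mC of 70.5% was also above the total. At chr7:149818201-149818400 WT 5mC was 0% against a WT total of 56.5%. Only 2 of the 4 tiles had second-set values. Those differed by 2.19 and -22.9 points in total methylation, neither a call in the authors' deposited table. In second-set 5mC that table calls chr7:149818201-149818400 lower in p53-null cells (-33.5 points, q = 0.0128). The CpG at chr7:149816945-149816946 had 26% in naive WT, 61% in naive p53-null, 50% in RA-treated WT and 55% in RA-treated p53-null cells. Its genotypes were 35 points apart in naive and 5 points apart in RA-treated cells, and its WT value was 24 points higher after RA. Its Hx values were 2% in naive WT, 55% in naive p53-null, 27% in RA-treated WT and 17% in RA-treated p53-null cells. After RA the genotype difference in Hx thus had the opposite sign to that in total methylation.

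The stretch with the most CpGs was almost unmethylated, apart from its first 2 tiles, which had 12.2 to 39.6% total methylation in mESC. At chr7:149843201-149847000, 13 tiles and 42 of the window's 50 CpGs were measured. The CpGs averaged 2.36% in naive WT, 2.17% in naive p53-null, 3.24% in RA-treated WT and 3.69% in RA-treated p53-null cells. Their median was 0 in all 4 groups. The tiles averaged 5.13% in WT against 5.81% in p53-null cells in the first set, and 5.77% and 5.58% in liver. Every CpG mean of the stretch thus stayed below 4%, whichever the genotype or state. It carries most of the CpGs behind the means of the H19 to Igf2 window, which were 7.44% in naive WT and 9.62% in naive p53-null cells. A neighbouring stretch of 10 tiles at chr7:149849601-149851800 went from 0 to 10.7% at its first 5 tiles in liver of either genotype to 64.8% in WT against 76.9% in p53-null liver at chr7:149851401-149851600. Total methylation of that tile was 21.3% in WT against 41.4% in p53-null cells in the first set, a call in the authors' deposited table (20.1 points, q = 7.63e-05). It was 39.5% and 46.8% in the second. Second-set 5mC went the other way, with 44.9% in WT against 34.2% in p53-null cells, not called. The tile's CpG, chr7:149851458-149851459, had 19% in naive WT, 44% in naive p53-null, 54% in RA-treated WT and 39% in RA-treated p53-null cells. Its Hx values were 4% in naive WT and 0% in naive p53-null cells. The higher naive total of p53-null cells was thus not seen in Hx. After RA the Hx values were 50% in WT and 10% in p53-null cells. Total methylation was high in every column at chr7:149855201-149855800, where 2 tiles had 78.7 to 86.4% total methylation over both sets and genotypes of mESC. Liver was at 95.6 to 100% in the 3 tiles there.

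**Figure D4:**
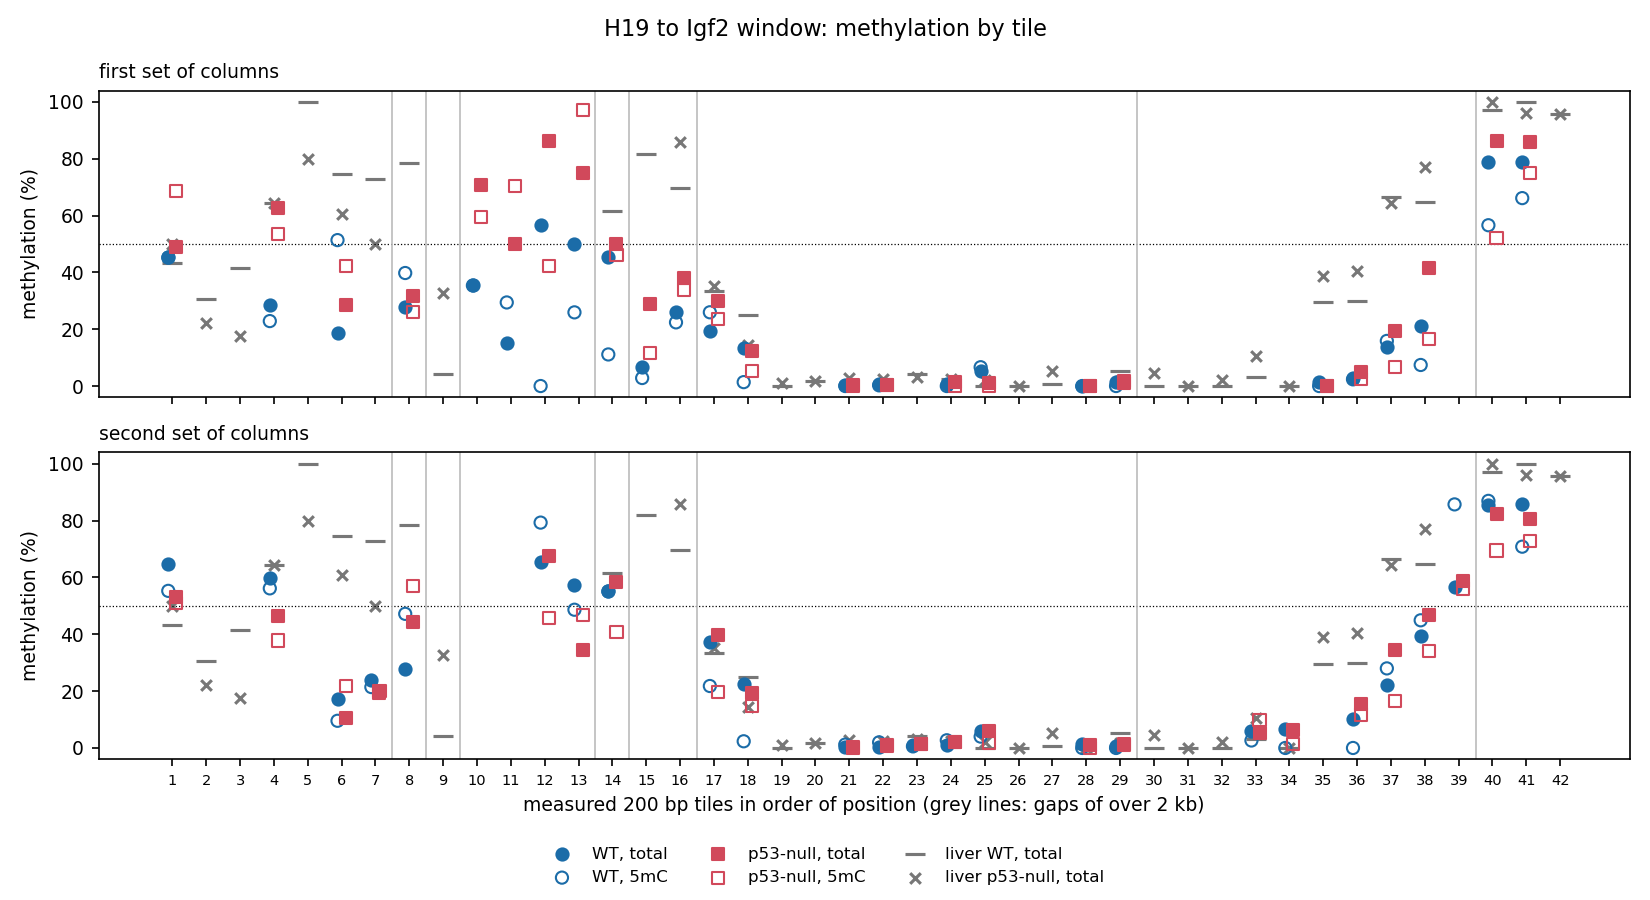
Methylation (%) of the 42 measured tiles of the H19 to Igf2 window in order of position, in the first (top) and second (bottom) set of columns; filled symbols are total methylation, open symbols 5mC, blue WT, red p53-null, and grey dashes and crosses the columns taken as liver. Tiles 10 to 13 are 25 to 35.2 points higher in p53-null than in WT total methylation in the first set, and most of tiles 17 to 29 lie near 0 in every column.

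Across the windows, the genotype calls of the first set were one-sided, as they were over the whole table. In the authors' deposited table, 17 of 38 member tiles with a q-value were called higher in p53-null cells for total methylation (q under 0.05 and at least 10 points), 8 of 24 in the H19 to Igf2 window, 5 of 10 in the Meg3 window and 4 of 4 in the Rasgrf1 window. The background over all tiles was 28.9%, and within 100 kb of the windows it was 24 of 69. None of the 38 was called lower in the authors' deposited table, beside 0.809% of all tiles. For 5mC, the authors' deposited table called 16 of 37 higher, beside 38.6% of all tiles, and 1 lower, beside 6.36%. That tile was chr7:149785801-149786000, with 39.8% in WT against 25.9% in p53-null cells. The 5mC count lies near its background.

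In the second set few member tiles were called. For total methylation the authors' deposited table called 2 of 40 higher, both of them the Meg3 tiles at chr12:110779001-110779400, beside 0.494% of all tiles. It called 1 lower, at Meg3, beside 3.75%. For 5mC, the authors' deposited table called 6 of 39 higher, beside 2.91% of all tiles, and 5 lower, beside 12.7%. The 6 were 3 tiles each of the H19 to Igf2 and Meg3 windows, and none was at Rasgrf1. The tiles called higher in both sets were the same Meg3 pair for total methylation and for 5mC, 2 of 31 tiles with q-values in both. The background for both sets was 0.257% of all tiles for total methylation and 1.41% for 5mC. Under a stricter call of q under 0.01 and at least 25 points, the Meg3 pair is no longer called in second-set total methylation. With counts this small, a single stretch of neighbouring tiles sets the share of second-set total methylation called higher. In second-set 5mC, the 3 Meg3 tiles called higher lie in 1 stretch. The 3 tiles of the H19 to Igf2 window each lie in a different stretch.

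**Figure D5:**
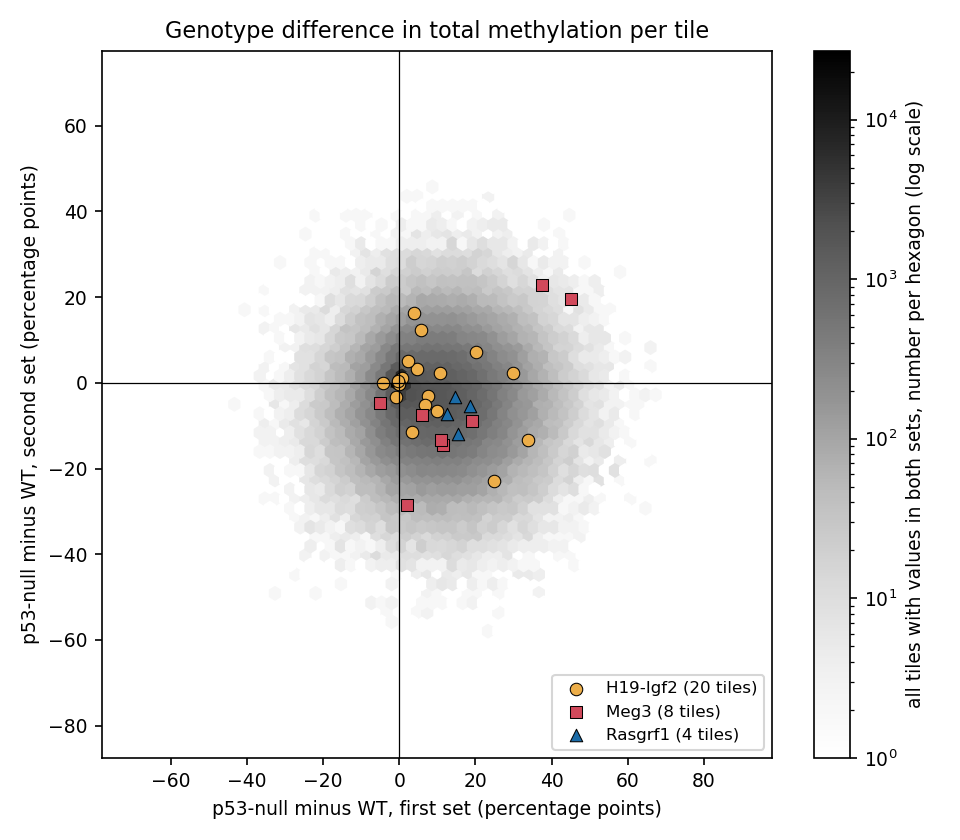
Difference in total methylation per tile, p53-null minus WT in percentage points, in the first (x axis) and second (y axis) set; grey hexagons count all tiles with values in both sets on a log scale, and coloured symbols are the 32 member tiles by window. The 2 Meg3 tiles at upper right are at 45.1 and 37.6 points on the x axis and 19.6 and 22.8 on the y axis, and the 4 Rasgrf1 tiles lie right of 0 and below 0.

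The levels themselves were seldom near the middle of the scale in all groups. Of the 59 CpGs, 5 (8.47%) had 30 to 70% total methylation in all 4 mESC groups, beside 5.23% of all CpGs. Meg3 held 4 of these 5 and the H19 to Igf2 window the other. Of 26 member tiles measured in both sets and in liver, 2 were at 30 to 70% in every total column, beside 2.01% of all tiles. Both Rasgrf1 CpGs were in that range in 3 groups and below it in naive WT cells. Total minus 5mC, which stands for 5hmC, averaged 6.996 points in WT against 5.37 in p53-null cells over the 39 member tiles of the first set. Over all tiles of that set it averaged 5.96 and 5.10 points. Over the 40 member tiles of the second set it averaged 1.39 and 1.19 points, beside 1.96 and 2.84 over all tiles. Values of -10 points or less occurred in 3 to 7 member tiles per column (7.69 to 17.9%), beside 8.06 to 12.2% of all tiles. No real 5hmC level can have such a value, so single-tile differences of this measure are not given.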

How the data were processed

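Genomic DNA cut with MspI went into RRBS and oxRRBS libraries, per the labels' protocols. Trim Galore, BSMAP and methylKit on mm9 are named in the submitters' processing notes. Not given in the sources used here were their roles, versions and coverage filters, and how libraries were pooled. The CpG table holds whole percent values deposited by the authors, 1 column per group and measure. The tile table holds methylation levels as fractions deposited by the authors, with their genotype differences and q-values per the file headers. Fractions were multiplied to percent. A q of -1 was taken as no q-value. The 2 tile columns of values with the suffix _D were not used.

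Genotype differences are p53-null minus WT, and differences between states RA-treated minus naive. A call is a cut-off applied here, q under 0.05 and at least 10 points, to the deposited q-values and to differences of the deposited levels. Windows were split into stretches at gaps over 2 kb, and flanks reach 100 kb. Stretches with at least 5 tiles or CpGs are described, and within a window the 3 largest differences each way, the highest and lowest values, and all calls where there are 5 or fewer, as far as they bear on a result. The windows, members and lists were chosen with earlier results of these data known. Tests per library, leaving out replicates and a replicate block need values of single libraries and were not run. A RefSeq promoter was to be printed only where at least 4 measured CpGs matched its CG spacing at a single place. No promoter met this. The Meg3 promoter shown matched at 11103 places, so its position could not be told. Printing it is an exception made after the values were seen. RefSeq gene order (GRCm38.p6) gave neighbours only. Positions count from 1. Python 3.11.15, numpy 2.4.6, pandas 2.3.3 and matplotlib 3.10.9 were used, and the counting of calls was tested on simulated data. Alternatives were a stricter call, any size of difference, medians, each tile once, tiles in both sets, 20 to 80% as the middle range, gaps of 5 kb and, added after seeing the data, tiles with at least 20% in the other set.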

Additional observations from a re-analysis of the deposited data

Results flagged for a closer look

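At 3 of 31 member tiles with q-values in both sets, the authors' deposited table calls 5mC higher in p53-null cells in the first set and lower in the second. Meg3 tile chr12:110783001-110783200 differed by 41.8 points in the first set and -13.7 points in the second. H19-Igf2 tile chr7:149764601-149764800 differed by 30.5 and -18.4 points. H19-Igf2 tile chr7:149818201-149818400 differed by 42.1 and -33.5 points, with 5mC levels of 0% in WT against 42.1% in p53-null cells in the first set and of 79.3% and 45.8% in the second. The difference between the sets was not tested. Opposite calls in 5mC were made at 6.36% of 201191 tiles of the whole table. For total methylation they were made at none of 31 member tiles and at 1.43% of 206042 tiles.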

How the results depend on the processing

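Main values were counts, or means over the CpGs or tiles of the windows. Of 87 recomputed values, 55 stayed within 1.5 times the main value and kept its sign. A further 24 moved more than that, and 8 changed sign. The 55 include values that could not change. The Rasgrf1 window has 2 CpGs in 1 tile and the same 4 tiles in both sets. A count of 0 cannot rise under a stricter call or in a subset of tiles. At q under 0.01 and 25 points, the first set had 5 of 38 tiles higher in total methylation (6.71% of all tiles), and 11 of 37 higher (18.02%) and 0 lower (2.14%) in 5mC. The second set had 0 of 40 higher (0.0489%) and 0 lower (0.506%) in total methylation, so the Meg3 pair at chr12:110779001-110779400 lost its call there, and 2 of 39 higher (0.617%) and 0 lower (3.41%) in 5mC. With any size of difference, 2 tiles were lower in 5mC in the first set. Among tiles with at least 20% in the other set, added after seeing the data, 3 were higher in 5mC in the second set, and in the first set 12 of 24 (50%) were higher in total methylation beside 38.9% of all tiles.

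As medians over CpGs, the H19-Igf2 genotype differences in naive and RA-treated cells and both RA-treated minus naive changes were 0, the Meg3 genotype difference was 0 in naive and -2 in RA-treated cells, and the Meg3 change in p53-null cells was 7. With each tile counted once, the H19-Igf2 naive genotype difference was 6.38 and its RA-treated minus naive change 5.68 in WT against -0.37 in p53-null cells, and at Meg3 the RA-treated genotype difference was 1.63 and the p53-null change -0.042. As medians over tiles, H19-Igf2 differences were 5.72 and 1.82 for total methylation and 5mC in the first set, against 0.046 and -1.23 in the second, and Meg3 differences in the second set were -4.69 and -1.79. Over tiles in both sets these Meg3 values were -4.42 and -0.49. The 8 changes of sign are among these values. The means over CpGs were 0.64 for the H19-Igf2 p53-null change, 4.29 for the Meg3 p53-null change and 0.43 for the Meg3 RA-treated genotype difference. In the second set the means over tiles were -0.70 for H19-Igf2 total methylation, and 0.66 and 4.63 for Meg3 total methylation and 5mC. These means and medians of whole windows mix stretches that differ, so their sign is not a property of single tiles. Median 5hmC in WT cells of the first set was 3.94. At 20 to 80%, 11 CpGs and 5 tiles were in the middle range in every group, and gaps of 5 kb gave 10 stretches in place of 16.

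No paired analysis was possible because the deposited columns are pooled over libraries and carry no replicate numbers. Leaving out each library was not run for the same reason. Depth is unknown, and differences between lines or clones cannot be told apart from those between genotypes.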
